A study of Mus musculus with 36 samples.

Results

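The genes described here encode the transcription factors at the core of fat cell differentiation: the nuclear receptor PPARγ (Pparg) and the CCAAT/enhancer-binding proteins C/EBPα (Cebpa), C/EBPβ (Cebpb), C/EBPδ (Cebpd) and C/EBPγ (Cebpg). They were chosen by name and not by a cut on measured values, although earlier results of these data were known. They are 5 of the 55536 genes in the count tables, each was found under 1 gene identifier, and all 5 passed the filter on low counts.

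The data were RNA-seq libraries of brown pre-adipocyte cell lines made to differentiate in culture, in a study of whether phosphorylation of a serine near the N-terminus of the retinoid X receptor alpha (RXRα) alters gene expression during this process. All lines came from 2 Rxra-/- clones, called 48 and 66 in the labels, each of which grew from a single Cas9-edited cell. Into each clone a retroviral vector returned Rxra either as the unmutated cDNA (WT) or with that serine changed to alanine (SA), and each of the 4 resulting lines was sampled on days 0, 2 and 6 with 3 replicates, 36 libraries in all. Every group therefore shared the disrupted Rxra, in which the study's methods describe frameshift mutations, the vector and the drug selection, and a line with its own intact Rxra was not analysed here. Day 0 was the day of confluence, in medium with insulin and triiodothyronine. The inducers dexamethasone, isobutylmethylxanthine and indomethacin were present from day 0 to day 2 and were then withdrawn. All clone 48 libraries were sequenced in library pool 1 and all clone 66 libraries in library pool 2, so clone and pool cannot be told apart. The series text calls the 3 replicates technical whereas the study's methods describe independent cultures, so the p-values below measure the spread between these libraries, which may be technical.

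As background, PPARγ binds DNA as a heterodimer with RXR and drives most genes of lipid storage, and fat cells do not form without it. In the usual scheme C/EBPβ and C/EBPδ are switched on early by the hormonal inducers, C/EBPβ by the cyclic AMP arm and C/EBPδ by the glucocorticoid, and both then raise Pparg and Cebpa, whose products keep each other on in the mature cell. C/EBPγ has the family's DNA-binding and dimerisation region but lacks a strong activation domain, and it pairs with the other C/EBP proteins and with ATF4.

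On the mouse assembly GRCm38 with GENCODE M21, Pparg (ENSMUSG00000000440.12) spans chr6:115360951-115490399 on the plus strand, with 7 annotated transcripts and 2953 bases of exon in the count tables. Cebpa (ENSMUSG00000034957.10, chr7:35119293-35121928, plus strand, 2636 bases), Cebpb (ENSMUSG00000056501.3, chr2:167688915-167690418, plus strand, 1504 bases) and Cebpd (ENSMUSG00000071637.5, chr16:15887286-15891031, plus strand, 3746 bases) are each a single exon block. Cebpg (ENSMUSG00000056216.9, chr7:35046422-35056573, minus strand, 5621 bases) lies beside Cebpa on chromosome 7 and has 3 exon blocks. The exons of Cebpb and of Cebpd overlap those of a gene on the opposite strand, Tmem189 by 312 bases and Spidr by 562 bases. The counts were made without regard to strand and read pairs that touched both genes were left out, so part of the Cebpb and Cebpd signal is missing, and reads of either strand that fell outside the overlap were counted for the gene they lay in.

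The stretches just before the transcription starts are shown because these genes rose together and the factors they encode bind short DNA words of this kind. Each is the 250 bases before a start in RefSeq on GRCm38.p6, read 5′ to 3′ on the strand of the gene. Capitals mark matches on either strand to the word bound by C/EBP dimers (TTGCNNAA), the CCAAT box, the core of the cyclic AMP response element (TGACG), the TATA box (TATAAA) or the element read by nuclear receptors (AGGTCA). RefSeq gave 3 starts for Pparg. The window shown lies before the start inside the gene, at which M21 also begins a protein-coding transcript. The windows before the other starts of Pparg are not printed, and their matches are given with the rest.
Pparg, internal start, chr6:115421816-115422065, plus strand: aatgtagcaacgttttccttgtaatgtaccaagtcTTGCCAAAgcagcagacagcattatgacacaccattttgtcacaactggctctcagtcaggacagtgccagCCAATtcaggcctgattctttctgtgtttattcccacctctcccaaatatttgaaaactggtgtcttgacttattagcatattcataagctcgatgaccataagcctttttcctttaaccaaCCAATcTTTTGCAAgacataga
Cebpa, chr7:35119043-35119292, plus strand: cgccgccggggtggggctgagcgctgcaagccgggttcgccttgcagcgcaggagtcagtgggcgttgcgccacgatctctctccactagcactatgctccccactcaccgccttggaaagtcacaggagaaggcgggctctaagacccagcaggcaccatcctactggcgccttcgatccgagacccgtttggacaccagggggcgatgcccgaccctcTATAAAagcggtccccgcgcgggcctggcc
Cebpb, chr2:167688665-167688914, plus strand: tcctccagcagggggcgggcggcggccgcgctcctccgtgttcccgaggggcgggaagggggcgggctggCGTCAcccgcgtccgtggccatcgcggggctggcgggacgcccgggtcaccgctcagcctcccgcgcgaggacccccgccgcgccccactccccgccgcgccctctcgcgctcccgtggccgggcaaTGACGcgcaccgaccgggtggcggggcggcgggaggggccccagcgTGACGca
Cebpg, chr7:35056567-35056816, minus strand: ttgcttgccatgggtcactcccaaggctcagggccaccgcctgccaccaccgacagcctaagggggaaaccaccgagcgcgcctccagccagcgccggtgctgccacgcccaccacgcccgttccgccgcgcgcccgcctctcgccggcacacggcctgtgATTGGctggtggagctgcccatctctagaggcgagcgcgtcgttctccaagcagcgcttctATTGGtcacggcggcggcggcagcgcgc

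The Pparg window held 2 matches to TTGCNNAA, with first bases at -215 and -16 from the start, and 2 to CCAAT, at -144 and -22. The Cebpb window held 3 matches to TGACG, at -180, -53 and -7, the Cebpg window 2 to CCAAT, at -89 and -28, and the Cebpa window 1 to TATAAA, at -30. For comparison, TTGCNNAA occurred in 9.56% of 32851 mouse promoter windows of this length. The CCAAT box occurred in 33.8%, the word TGACG in 17.8%, the TATAAA box in 12.4% and the nuclear receptor word AGGTCA in 14.02%. None of the 4 printed windows held AGGTCA, whereas each of the unprinted Pparg windows held 1 match to it, at -28 in the window of the first start and at -9 in that of the next. The latter window also held CCAAT at -83 and TATAAA at -29, and neither of them held TTGCNNAA. A match is a description of the letters only, and no binding was measured here.

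The 36 libraries held 11351078 to 24349263 counted read pairs, with a median of 18338726. The lowest total belonged to clone 48 SA day 0 replicate 1. Rxra, the disrupted and returned gene, was counted at least 1851 times in every library, from the vector and from the edited locus together, and its level in SA and WT libraries overlapped on each day, with SA and WT medians of 187 and 178 CPM of the library total before induction, of 501 and 511 on day 2 and of 228 and 229 on day 6. Of 5 adipocyte markers, all were counted over 3 times in some library, and their summed level was 62.3 to 103 CPM before induction, 2730 to 4960 on day 2 and 5500 to 9630 on day 6. The 9 brown adipocyte markers summed to a median of 10.3 CPM before induction (0.461 to 37.1), 28.1 on day 2 (2.81 to 84.4) and 80.7 on day 6 (40.6 to 117). Day 2 overlapped both other days. On day 6, 8 of 9 were counted over 3 times in some library. Cox8b stood at 24.3 to 47.6 CPM and Cox7a1 at 3.76 to 27.3 on day 6, each below 1 CPM before, and Ebf2 at 0.757 to 59.4. Ebf2 was already at 0.163 to 36.1 CPM on day 0 and 0.446 to 75.2 on day 2. Elovl3 averaged 6.02 CPM on day 2 and 0.551 on day 6, and Dio2 0.312 and 0.116. Cidea and Prdm16 averaged 0.670 and 0.276 CPM on day 6. The defining markers Ucp1 and Zic1 had at most 5 counts and 1 count in any library. The median summed level of the list was thus higher on the later days while Ucp1 and Zic1 were near absent. The pre-adipocyte markers summed to 289 to 498 CPM before induction, 31.0 to 92.9 on day 2 and 42.6 to 158 on day 6, with Dlk1 at no more than 1 count. Macrophage, endothelial and skeletal muscle lists summed to at most 12.4, 1.02 and 11.5 CPM, with Ptprc, Adgre1, Itgam, Cdh5 and Kdr at no more than 1 count and Myod1 at 0.

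All 5 genes rose between day 0 and day 2, when the inducers were present, and the changes after day 2 differed from gene to gene. Cebpa rose most and then fell in part, staying well above day 0, and Pparg went on rising to day 6. Cebpg had no called difference after day 2, Cebpb fell part of the way back, and Cebpd returned to its day 0 range. Over all 16723 genes tested, 73.3% were called between days 0 and 2, 62.0% between days 2 and 6 and 68.3% between days 0 and 6, so the count of members called, 5, 4 and 4 of 5, is read against that background and the sizes are given below. With libraries scaled by their totals alone, the median difference of all genes between days 0 and 2 stood at -0.27 in place of -0.0152, and the calls split into 4190 higher and 8264 lower in place of 5989 and 6270, and between days 0 and 6 into 4155 and 7758 in place of 5505 and 5919, while the 5 members kept their direction in every interval. Levels of the 5 genes are given as CPM, read counts relative to the library total, scaled by the trimmed mean of M-values (TMM), and differences as log2 values ± SE from an edgeR quasi-likelihood fit with Benjamini-Hochberg adjustment over all genes tested.

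**Figure D1:**
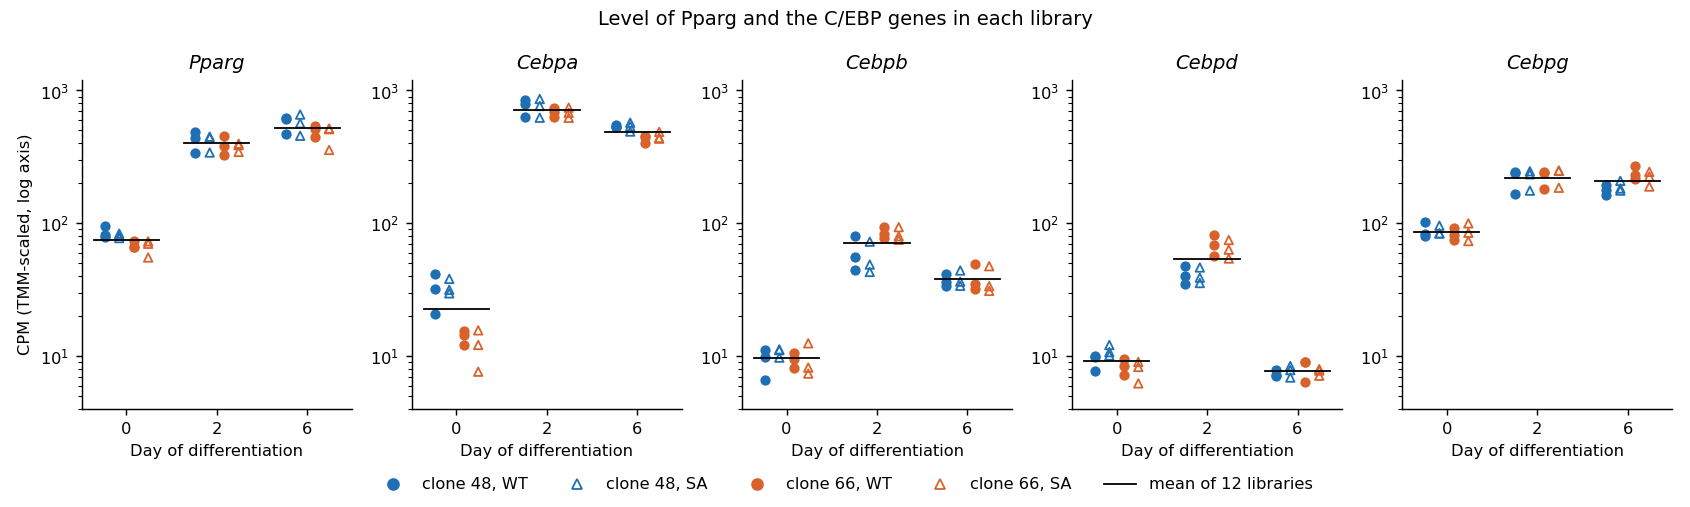
Level of each gene in all 36 libraries on days 0, 2 and 6, in TMM-scaled CPM on a log axis, with points coloured by clone and shaped by genotype. Cebpa climbed from 7.66 to 41.4 CPM at day 0 to 622 to 862 CPM at day 2, and Cebpd was back at 6.44 to 9.12 CPM by day 6.

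Pparg, the receptor itself, stood at 55.3 CPM in the lowest, 75.5 in the median and 95.8 in the highest of the 12 day 0 libraries. On day 2 these values were 327, 392 and 490 CPM, and on day 6 they were 357, 515 and 658 CPM. The day 0 libraries lay below all later ones, whereas days 2 and 6 overlapped. Pparg was 5.33-fold higher on day 2 than on day 0 (log2 2.41 ± 0.08, adjusted p = 2.223e-23) and a further 1.303-fold higher on day 6 (0.38 ± 0.08, adjusted p = 8.349e-05). This further rise was 0.47 in clone 48 fitted alone and 0.33 in clone 66 fitted alone. Across the whole course the gain was 6.95-fold (2.80 ± 0.08, adjusted p = 4.945e-25). In bulk RNA a larger share of differentiated cells and more Pparg RNA per cell cannot be told apart, and this holds for every gene below.

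Cebpa, which encodes the factor that sustains the mature adipocyte programme with PPARγ, had the widest range. It was at 7.66 CPM in the lowest, 18.2 in the median and 41.4 in the highest day 0 library, or 153 to 813 read pairs. On day 2 the values were 622, 711 and 862 CPM, and on day 6 they were 399, 489 and 572 CPM. The 3 days did not overlap, and day 2 was the highest. The first step was 34.2-fold (log2 5.10 ± 0.17, adjusted p = 1.015e-23), the largest of the 5 genes. From day 2 to day 6 Cebpa fell by 0.57 ± 0.14 on the log2 scale (adjusted p = 8.541e-04), which left it 23.1-fold above day 0 (4.53 ± 0.17, adjusted p = 1.195e-22).

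Cebpb, one of the early factors, was counted 135 to 290 times a library on day 0. Its level was 6.67, 9.85 and 12.5 CPM in the lowest, median and highest day 0 library, 43.1, 76.6 and 93.7 CPM on day 2, and 31.0, 35.4 and 49.9 CPM on day 6. Day 0 lay apart from the later days, and a few day 2 libraries reached down into the day 6 range. The rise to day 2 was 7.23-fold (log2 2.85 ± 0.13, adjusted p = 5.717e-20). By day 6 Cebpb had fallen by 0.88 ± 0.12 on the log2 scale (adjusted p = 9.986e-08) and was still 3.92-fold above day 0 (1.97 ± 0.13, adjusted p = 8.598e-16).

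Cebpd, the other early factor and a direct target of the glucocorticoid receptor, was high on day 2 and on neither of the other days. Its level was 6.25, 9.29 and 12.2 CPM in the lowest, median and highest day 0 library, 34.8, 51.1 and 81.9 CPM on day 2, and 6.44, 7.83 and 9.12 CPM on day 6. All day 2 libraries lay above all others, and the day 6 range fell inside that of day 0. The rise was 5.77-fold (log2 2.53 ± 0.13, adjusted p = 1.123e-18) and the fall 6.83-fold (-2.77 ± 0.13, adjusted p = 3.428e-19). Day 6 against day 0 gave -0.24 ± 0.13, with a 95% interval of -0.50 to 0.01 and an adjusted p of 0.0854. That last difference passed the test when libraries were scaled by library size alone (-0.43, adjusted p = 0.00253) and in clone 48 alone (-0.40, adjusted p = 0.00843), and not in clone 66 alone (-0.01, adjusted p = 0.964).

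Cebpg had the smallest difference of the 5 genes between days 0 and 2 and between days 2 and 6. Its level was 73.6, 84.0 and 102 CPM in the lowest, median and highest day 0 library, 166, 239 and 250 CPM on day 2, and 165, 202 and 270 CPM on day 6. Day 0 lay below both later days, which overlapped. Cebpg rose 2.55-fold by day 2 (log2 1.35 ± 0.09, adjusted p = 5.116e-16), and from day 2 to day 6 the difference was -0.10 ± 0.08 (95% interval -0.27 to 0.07, adjusted p = 0.302). Day 6 was 2.38-fold above day 0 (1.25 ± 0.09, adjusted p = 4.673e-15).

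The same calls were made when the day contrasts were taken in the WT lines and in the SA lines. In each genotype 5 of 5 genes rose from day 0 to day 2, 4 of 5 changed from day 2 to day 6 (Pparg upward and Cebpa, Cebpb and Cebpd downward), and 4 of 5 were higher on day 6 than on day 0. Of all genes 63.4% in WT and 62.7% in SA were called in the first of these contrasts, 48.6% and 50.2% in the second, and 56.0% and 56.7% in the third.

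The order of the genes was compared per kilobase of exon, since longer transcripts give more reads. The lengths of Cebpb and Cebpd include the 312 and 562 overlapping bases in which read pairs were left out. Their levels per kilobase, and the places, shares and ratios that rest on them, are therefore approximate. On day 0 Pparg led with 25.5 ± 3.48 CPM per kilobase (SD, n = 12), followed by Cebpg with 15.4 ± 1.64, and each of these places held in 12 of 12 libraries. Cebpa with 8.58 ± 4.33 and Cebpb with 6.43 ± 1.17 came next, and their order differed between the clones. Cebpa was the higher in 6 of 12 libraries, which were those of clone 48 (ratio to Cebpb 1.51 to 2.38). In clone 66 Cebpb was the higher (ratio 0.590 to 0.864). Cebpd was last with 2.44 ± 0.435. On day 2 Cebpa led with 272 ± 32.6 CPM per kilobase and Pparg followed with 135 ± 18.4, again in 12 of 12 libraries and without overlap. Cebpb with 47.0 ± 11.97 was above Cebpg with 39.3 ± 5.87 in 10 of 12 libraries and their ranges overlapped, and Cebpd had 14.3 ± 4.23. On day 6 Cebpa with 185 ± 20.7 and Pparg with 177 ± 28.8 did not differ beyond their spread, each being the higher in 6 of 12 libraries. Cebpg with 36.8 ± 5.61 then passed Cebpb with 25.2 ± 4.16 in 12 of 12 libraries, although their ranges overlapped, and Cebpd had 2.07 ± 0.220.

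Expressed as shares of the summed level per kilobase of the 4 C/EBP genes, Cebpg was the main C/EBP transcript before induction and Cebpa the main one after it. Cebpg made up 47.9% ± 6.88 of the sum on day 0 (SD, n = 12), 10.6% ± 1.88 on day 2 and 14.9% ± 2.73 on day 6. Cebpa made up 24.8% ± 8.56, 73.0% ± 4.14 and 74.2% ± 3.55 on the same days. Cebpb went from 19.8% ± 2.97 to 12.5% ± 2.71 and 10.1% ± 1.25, and Cebpd from 7.50% ± 1.02 to 3.86% ± 1.20 and 0.833% ± 0.0964. The Cebpb share thus fell between days 0 and 2 while the Cebpb level rose, since the sum itself went from 32.8 ± 6.21 to 373 ± 37.1 CPM per kilobase. By read counts without division by length the order on each day was the same at the top, with Cebpg at 68.3% on day 0 and Cebpa at 67.4% on day 2 and 65.9% on day 6.

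**Figure D2:**
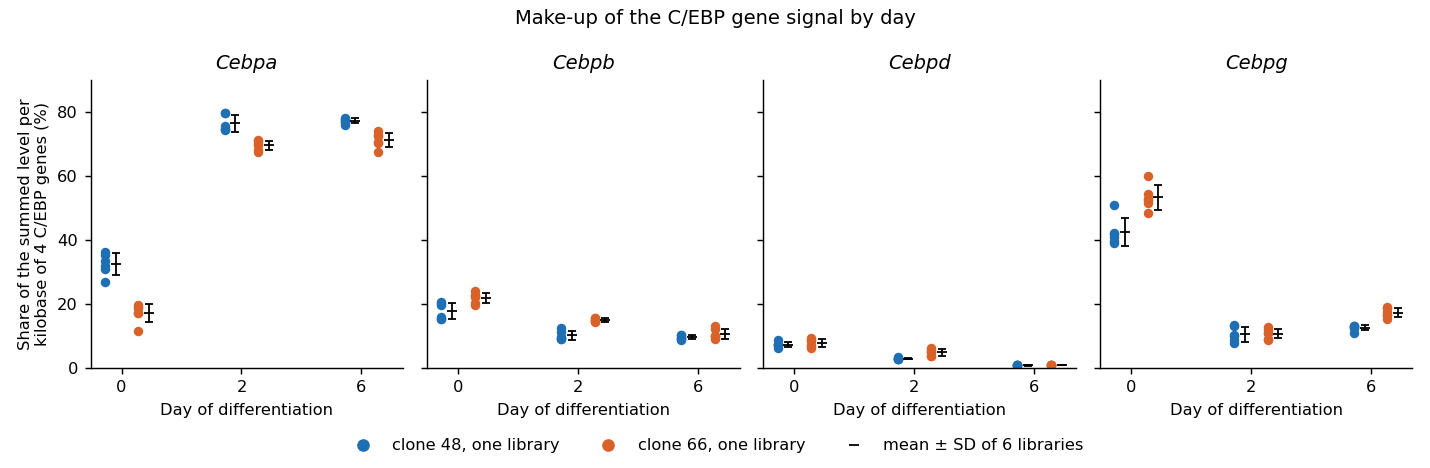
Share of each C/EBP gene in the summed level per kilobase of the 4 C/EBP genes, in percent, by day, with 1 point a library coloured by clone and bars for the mean ± SD of 6 libraries. Cebpg held 47.9% on average at day 0, and Cebpa held 73.0% at day 2 and 74.2% at day 6.

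Ratios within a library gave the same picture for pairs of partners. The level of Pparg per kilobase was 3.69 ± 1.88 times that of Cebpa on day 0 (SD, n = 12), 0.503 ± 0.0916 times on day 2 and 0.954 ± 0.124 times on day 6. Cebpb over Cebpd was 2.68 ± 0.509 on day 0, 3.36 ± 0.641 on day 2 and 12.2 ± 1.53 on day 6, as Cebpd returned to its starting range and Cebpb did not.

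Among the other C/EBP and bZIP genes fixed as a list, 4 of 7 were expressed highly enough to test, and all 4 were higher on day 2 than on day 0, with a median difference of 2.06 against -0.0152 over all genes. Ddit3 (CHOP, a dominant-negative partner of C/EBP proteins) rose by 2.05 ± 0.18, Atf3 by 2.46 ± 0.23 and Atf4, the partner of C/EBPγ in the amino acid response, by 2.07 ± 0.12. Cebpz, which shares the name but not the bZIP fold, rose by 0.30 ± 0.08 (adjusted p = 0.001072), and this call was lost in clone 48 alone (0.27) and by library size alone (0.04). On day 6 Atf4 had fallen by 1.01 ± 0.12 from day 2, and Ddit3, Atf3 and Atf4 were above day 0 by 2.34, 2.60 and 1.06 on the log2 scale. Cebpe had at most 1 count in any library, Batf2 at most 4 and Batf3 at most 17, and these 3 were not tested.

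Of 5 genes for other PPARs and the RXR partners, 4 were tested, 3 of which were higher on day 2 and 4 on day 6 than on day 0, with a day 6 median of 0.768 against -0.0341 over all genes. A gene expressed on a single day passes the filter on low counts through that day, so the counts of each list describe its tested genes and not the whole list. Rxra rose by 1.77 ± 0.11 to day 2 and fell by 1.15 ± 0.11 to day 6, and its transcript came at least in part from the vector. Rxrb rose by 0.65 ± 0.07 to day 2. Ppard, the widely expressed PPAR, rose by 0.56 ± 0.23 (adjusted p = 0.0289), a call that was lost without clone 48 replicate 3 (0.44), without clone 66 replicate 2 (0.55), without clone 66 replicate 3 (0.56), in clone 48 alone (0.34) and by library size alone (0.30). Rxrg had 0 counts in all 12 day 0 libraries, at most 1 count on day 2 and 0.363 to 4.33 CPM of the library total on day 6. Ppara had at most 5 counts and was not tested.

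The 17 activators that act upstream of Pparg or the C/EBP genes did not move as a block. Of 16 tested, 6 were higher and 5 lower on day 2 than on day 0 (median -0.0333), and 9 were higher and 4 lower on day 6 than on day 0 (median 0.281). Klf15, a glucocorticoid-induced activator of Pparg, went from 0 to 0.439 CPM of the library total on day 0 to 1.21 to 3.41 on day 2 and 87.8 to 126 on day 6. Zfp423, which commits precursors to the fat lineage, was 3.53 ± 0.27 higher on day 6 than on day 0, Srebf1 2.92 ± 0.16 and Klf9 1.65 ± 0.13. The largest decreases over the same interval were those of Egr2 (-0.93 ± 0.26), Klf5 (-0.68 ± 0.24), Klf6 (-0.40 ± 0.11) and Creb1 (-0.35 ± 0.10). The calls for Egr2 and Creb1 were lost in clone 48 alone (-0.25 and -0.27), and those for Klf6 and Klf5 in clone 66 alone (-0.37 and -0.57), and that for Klf5 also without clone 48 replicate 1 (-0.58).

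Genes known to hold Pparg or the C/EBP factors back were mostly lower after induction, with exceptions that rose strongly. Of 16 tested, 4 were higher and 9 lower on day 2 than on day 0 (median -1.02 against -0.0152 over all genes), and the counts were again 4 and 9 on day 6 against day 0 (median -0.581 against -0.0341). Wnt10b, a secreted brake on adipogenesis, went from 0.969 to 4.39 CPM of the library total on day 0 to at most 0.106 on day 2 and 0.224 on day 6. Between days 0 and 6 Gata2 fell (log2 -3.83 ± 0.36), as did Zfp521 (-3.14 ± 0.28) and Id2 (-3.00 ± 0.19). The members that rose were the pseudokinase genes Trib3 (4.22 ± 0.26) and Trib1 (3.09 ± 0.24), with Hes1 (1.97 ± 0.16) and Foxo1 (1.88 ± 0.34). The product of Trib1 takes part in C/EBP protein turnover. The day 2 changes of Id2 (-0.63) and Hes1 (0.25) did not pass in clone 48 alone.

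Of the 17 cofactors 16 were tested, and 8 were higher and 4 lower on day 2 than on day 0 (median 0.187), with 7 higher and 1 lower on day 6 against day 0 (median 0.0812). Library size alone gave 13 calls on day 6 in place of these 8. Ppargc1b was 2.65 ± 0.25 higher on day 6, Nrip1 1.74 ± 0.15, Ncoa1 1.52 ± 0.17 and Tle3 1.33 ± 0.19, and Sirt1, which restrains PPARγ, was lower by -0.44 ± 0.07.

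Most of the 30 established target genes of PPARγ and C/EBPα were higher after induction. Of 29 tested, 26 were called between days 0 and 2, all of them higher on day 2 (median 4.64 against -0.0152, or 3.84 with Pck1, which had no day 0 count, set at the limit of 3 counts a library), and 27 higher and 2 lower on day 6 than on day 0 (median 4.81 against -0.0341). Plin1, the main coat protein of the lipid droplet, went from 0.0524 to 0.460 CPM of the library total on day 0 to 219 to 329 on day 2 and 453 to 733 on day 6. Cfd (adipsin) went from 0.111 to 1.09 to 3.52 to 45.5 and then 655 to 1841 CPM, so most of its gain came after day 2. Retn (resistin) had at most 3 counts in a day 0 library and stood at 11.6 to 23.9 CPM on day 2 and 154 to 738 CPM on day 6, and Pck1 had 0 counts on day 0 and 14.2 to 35.1 CPM on day 6. The 2 lower genes were Plin4 (-0.43 ± 0.11) and Gk (-0.40 ± 0.11), and both calls were lost in clone 48 alone (-0.34 and -0.13). Between days 2 and 6, 17 targets rose and 9 fell while Pparg rose and Cebpa fell.

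The study asked whether the serine of RXRα matters for gene expression. For these 5 genes WT and SA libraries overlapped for every gene on every day. Each genotype held both clones, which lay apart for Pparg on day 0, Cebpa on days 0 and 6 and Cebpd on day 2. There the overlap of WT and SA says little about the genotypes. The share of all genes that overlap in this way was not counted. Pparg in the 6 WT libraries was 66.5, 76.1 and 95.8 CPM (lowest, median and highest) on day 0, 327, 412 and 490 CPM on day 2 and 447, 526 and 624 CPM on day 6. In the 6 SA libraries it was 55.3, 75.4 and 83.7 CPM, then 341, 392 and 449 CPM, then 357, 514 and 658 CPM. The ranges of the genotypes covered one another for most of their width on each day.

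Cebpa in the WT libraries was 12.1, 18.1 and 41.4 CPM on day 0, 628, 711 and 844 CPM on day 2 and 399, 492 and 547 CPM on day 6. In the SA libraries it was 7.66, 22.7 and 38.2 CPM, then 622, 711 and 862 CPM, then 434, 489 and 572 CPM. The medians of the genotypes were within a few CPM of each other on days 2 and 6. On day 0 each median fell between the values of the 2 clones, which did not overlap, so it says little about the genotypes. Cebpb, Cebpd and Cebpg had SA means of 69.0 ± 19.2, 52.3 ± 15.03 and 223 ± 33.5 CPM on day 2 (SD, n = 6), beside WT means of 72.5 ± 18.3, 55.0 ± 17.9 and 219 ± 35.5 CPM.

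No member was called between SA and WT on any day, and neither was any other gene, so percent called was 0.0 on days 0, 2 and 6 in the edgeR quasi-likelihood test. At an unadjusted p under 0.05 that test had 139, 162 and 125 of 16723 genes on the 3 days and no member, DESeq2 also called 0 genes (116, 130 and 101 unadjusted), and the edgeR version 4 test called 0 (156, 179 and 138 unadjusted). These unadjusted counts were below a share of 0.05 of the genes tested. The member differences ran from -0.08 to 0.11 on the log2 scale. Their 95% intervals reached from -0.46 to 0.48 at the widest, on day 0 for Cebpa and Cebpb, and from -0.29 to 0.18 for Pparg over the 3 days. Differences of either sign within those bounds are compatible with this fit. WT and SA libraries with the same replicate number could be paired, which gave 6 pairs a day for each gene. The fit left this pairing out, so its intervals also hold spread that paired libraries share. For Cebpa on day 2 the interval was -0.42 to 0.40 and the pairs ran from -0.0589 to 0.0308. On day 0 the Cebpa pairs were wider than its interval, from -0.662 to 0.527 against -0.46 to 0.38. SA was the higher in 2 to 4 of 6 pairs for every gene on days 0 and 6. On day 2 it was the higher in 1 of 6 pairs for Cebpb (log2 differences from -0.184 to 0.0055), in 5 of 6 for Cebpg (-0.0504 to 0.0874) and in 2 to 4 of 6 for the other genes. With the replicate block within each day 1 gene that is no member was called on day 2.

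**Figure D3:**
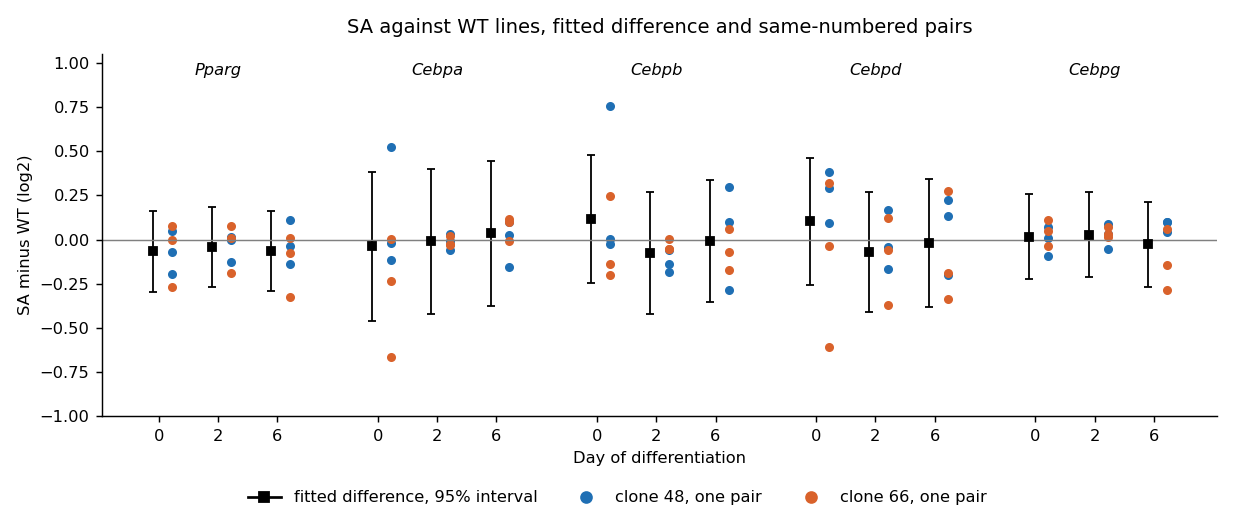
SA minus WT on the log2 scale for each gene and day, as the fitted difference with its 95% interval (squares) and as 6 same-numbered pairs of libraries coloured by clone. All 15 intervals include 0, and the pairs spread most on day 0, from -0.66 to 0.76.

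No member was called for a difference between the genotypes in the change over time either. Genotype by time gave 0 calls among the members and 0.0 percent called over all genes for each of the 3 intervals in edgeR (144, 153 and 128 genes at an unadjusted p under 0.05 for days 0 to 2, 2 to 6 and 0 to 6, and 0 calls by DESeq2), with member differences from -0.19 to 0.07. Clone by genotype, that is whether SA minus WT depended on the clone, also gave 0 member calls and 0.0 percent called on each day (305, 242 and 222 genes unadjusted in edgeR, 0 calls by DESeq2), with member differences from -0.34 to 0.10 and a smallest unadjusted p of 0.1854, for Cebpd on day 0. The lists of partners, regulators and targets had 0 genes called between SA and WT on any day.

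Between the 2 clones Cebpa was called on day 0, Cebpb and Cebpd on day 2 and Cebpg on day 6, each on that day only. Of all 17589 genes tested with clones kept apart, 22.7% were called between clones on day 0, 28.6% on day 2 and 25.0% on day 6. Of the 5 members 1, 2 and 1 were called, a count close to that background. By library totals alone the day 6 calls over all genes split into 1813 higher and 2645 lower in clone 66 in place of 2366 and 2028. As stated above, clone and library pool cannot be told apart.

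On day 0 Cebpa stood at 20.6, 32.1 and 41.4 CPM in the 3 WT libraries of clone 48 and at 29.7, 31.6 and 38.2 CPM in its SA libraries. In clone 66 it stood at 12.1, 14.3 and 15.6 CPM in the WT libraries and at 7.66, 12.2 and 15.7 CPM in the SA libraries. The clones did not overlap, and clone 66 was 2.52-fold lower (log2 -1.33 ± 0.15, adjusted p = 3.307e-08). In shares, Cebpa made up 32.5% ± 3.42 of the C/EBP sum in clone 48 and 17.2% ± 2.92 in clone 66 on that day (SD, n = 6). On day 2 the clones overlapped, with Cebpa at 624 to 862 CPM in clone 48 and at 622 to 742 CPM in clone 66. On day 6 the clones again did not overlap, at 491 to 572 and 399 to 488 CPM, but the difference of -0.25 had an adjusted p of 0.198.

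Pparg on day 0 was 77.5 to 95.8 CPM in clone 48 and 55.3 to 73.5 CPM in clone 66. These ranges did not overlap either, and the difference of -0.31 ± 0.12 had an adjusted p of 0.0636, which passed 0.05 in 4 of 15 alternatives (adjusted p from 0.0144, with the replicate block, to 0.329). On day 6 its difference of -0.21 (adjusted p = 0.204) passed without clone 48 replicate 3 (-0.35, adjusted p = 0.0200). Rxra, whose product is the partner of PPARγ, was also lower in clone 66 on day 0 (-0.55 ± 0.16, adjusted p = 0.0122), a call lost without clone 48 replicate 2 and without clone 66 replicate 1.

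On day 2 the early factors were the ones that differed. Cebpd was 34.8, 39.5 and 47.9 CPM (lowest, median and highest of 6) in clone 48 and 54.3, 66.2 and 81.9 CPM in clone 66, without overlap, and the difference was 1.63-fold (log2 0.71 ± 0.12, adjusted p = 4.164e-05). Cebpb was 43.1, 52.3 and 80.0 CPM in clone 48 and 75.2, 81.5 and 93.7 CPM in clone 66, and these ranges overlapped. The Cebpb difference of 1.45-fold (0.53 ± 0.16, adjusted p = 0.0142) was lost without clone 48 replicate 1 (0.36, adjusted p = 0.129), without clone 48 replicate 3 (0.49, adjusted p = 0.0623) and without clone 66 replicate 2 (0.46, adjusted p = 0.0642). On day 6 Cebpg was 165, 180 and 209 CPM in clone 48 and 189, 228 and 270 CPM in clone 66. That overlapping difference was 1.26-fold (0.33 ± 0.12, adjusted p = 0.0352) and passed in 8 of 15 alternatives. It was lost when any 1 of clone 48 replicates 1, 2 or 3 (0.32, 0.36 and 0.27) or of clone 66 replicates 1 or 2 (0.34 and 0.23) was left out.

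**Figure D4:**
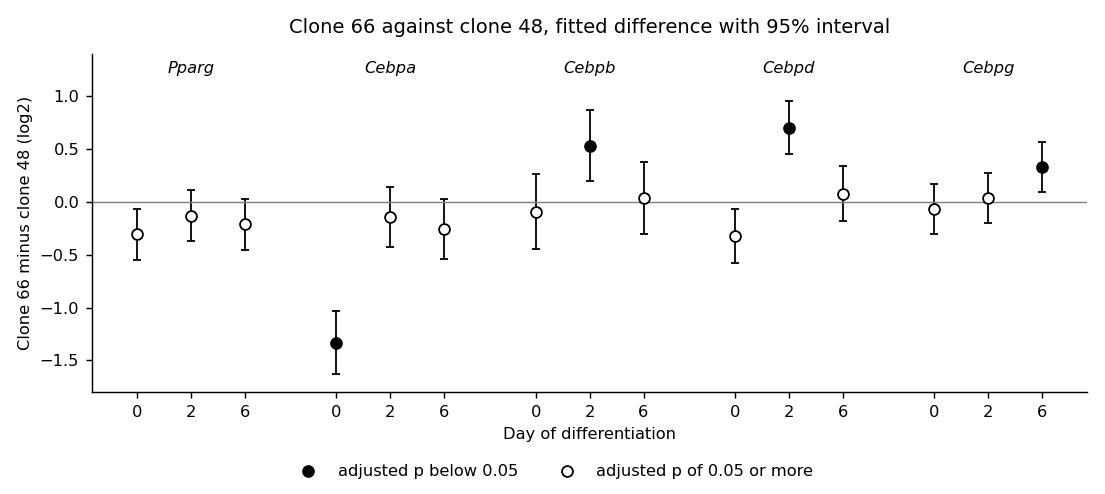
Clone 66 minus clone 48 on the log2 scale for each gene and day, averaged over the genotypes, with 95% intervals, where filled points have an adjusted p below 0.05. Filled points are Cebpa on day 0 (-1.33), Cebpd (0.71) and Cebpb (0.53) on day 2 and Cebpg on day 6 (0.33).

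The difference between clones in the change over time was tested directly. Cebpa rose by 4.52 in clone 48 and by 5.76 in clone 66 between days 0 and 2 when each clone was fitted alone, and the difference of the rises was 1.19 ± 0.20 (adjusted p = 2.159e-04). It was still 1.08 ± 0.20 between days 0 and 6 (adjusted p = 1.099e-03). Cebpd rose by 1.99 and 3.06 in the same clones, a difference of 1.03 ± 0.17 (adjusted p = 2.469e-04), and then fell by 2.39 and 3.07. The difference of the falls, -0.63 ± 0.18 (adjusted p = 0.0281), was lost without clone 48 replicate 1 (-0.52), clone 48 replicate 3 (-0.61), clone 66 replicate 1 (-0.63) or clone 66 replicate 3 (-0.52). Pparg and Cebpg had no called difference of this kind. For Cebpb the difference between days 0 and 2 was 0.62 (adjusted p = 0.132), and with the replicate block it passed the test for days 0 to 2 (0.65, adjusted p = 0.0167) and for days 2 to 6 (-0.54, adjusted p = 0.0376). Over all genes 6.22%, 5.81% and 3.62% were called for clone by time between days 0 and 2, 2 and 6, and 0 and 6, beside 2, 1 and 1 of the 5 members. With the replicate block 2166, 2082 and 1363 genes were called in place of 1094, 1022 and 637, and 3, 2 and 1 members.

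Of 4 tested genes of the C/EBP partner list, 0 were called between clones on day 0, 1 on day 2 and 3 on day 6. The shares over all genes were 22.7%, 28.6% and 25.0%. Ddit3 was lower in clone 66 on day 2 (-0.84 ± 0.13, adjusted p = 6.553e-06) and higher on day 6 (0.84 ± 0.13, adjusted p = 7.694e-06), and Atf4 was higher on day 6 (0.89 ± 0.13, adjusted p = 5.99e-06). Atf3 was also called higher on day 6. That call was lost without clone 48 replicate 2 (0.88) or 3 (0.74) and without clone 66 replicate 1 (0.67) or 2 (0.88).

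Libraries also differed by the replicate number in their labels. For Pparg, Cebpa, Cebpb and Cebpg, WT and SA libraries of the same clone, day and number differed less than those of different numbers, with mean absolute log2 differences of 0.0987 against 0.234, 0.125 against 0.261, 0.158 against 0.321 and 0.0773 against 0.240 (18 same-numbered and 36 other pairs). Cebpd was the exception at 0.223 against 0.220. On day 2 the pattern was shared by both clones. Cebpg was 166 to 185 CPM in the 4 libraries numbered 3 and 234 to 250 CPM in the other 8. Pparg was 327 to 345 CPM in those numbered 3 and 385 to 490 CPM in the rest. Cebpa was lowest in number 1, at 622 to 635 CPM, and highest in number 2, at 733 to 862 CPM, in all 4 lines, and Cebpb was likewise lowest in number 1 and highest in number 2. On day 6 Pparg was again lowest in number 3 in all 4 lines, at 357 to 468 CPM against 511 or more. The replicate numbers were no group of the study, and this is a description with no test.

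**Figure D5:**
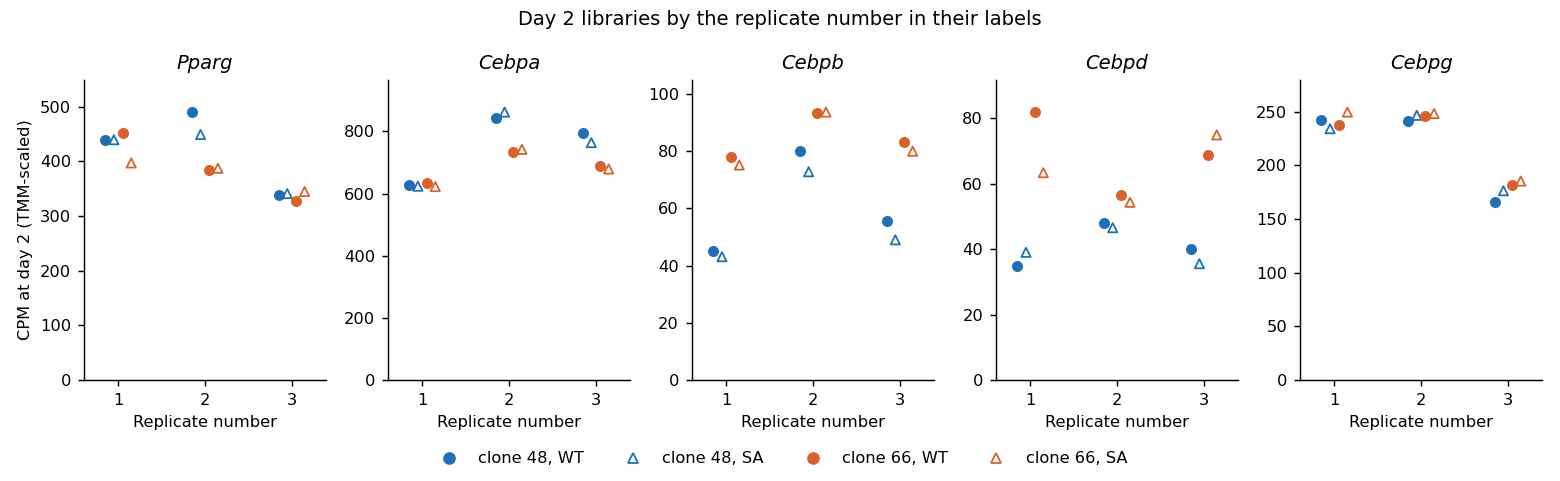
Day 2 level of each gene in TMM-scaled CPM, on a linear axis from 0, against the replicate number in the labels, with 1 line or point set for each of the 4 cell lines. Pparg and Cebpg are lowest in number 3 in all 4 lines, and Cebpa and Cebpb are lowest in number 1 and highest in number 2.

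The genes whose levels followed each member most closely were found by Pearson correlation of log2 CPM over the 36 libraries among 9726 well expressed genes. These correlations rest on 3 days shared by all genes and are a description. Pparg was followed by Fabp4, the adipocyte fatty acid-binding protein, with r = 0.992, and by Aldh6a1 and Fcor with 0.990 each. Cebpa was followed by Grsf1 (0.987), Pxmp4 (0.987) and the lipid droplet gene Cidec (0.985), and Cebpb by Apmap (0.976), Ptges2 (0.976) and Ormdl3 (0.975). Cebpd, with its single peak on day 2, was followed by Limk2 (0.982), Kbtbd2 (0.975) and Pole4 (0.973), and Cebpg by Pdhb (0.965), Fabp5 (0.964) and Gm6123 (0.964). By Spearman correlation the top 3 shared 0 genes with these for Pparg, Cebpa and Cebpb and 1 for Cebpd, so the exact names depend on the measure.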

How the data were processed

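Total RNA of the 36 cultures was depleted of ribosomal RNA and made into libraries with a stranded kit (TruSeq Stranded Total RNA Gold). The authors aligned paired-end reads to GRCm38 with STAR 2.7.0d and deposited raw counts per gene of GENCODE M21, made with featureCounts 1.6.2. Per the file headers no strand option was set. No depth correction had been applied to the deposited counts. The genes described and all gene lists were chosen with earlier results of these data known.

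Counts were filtered (filterByExpr), scaled by TMM and tested with edgeR 4.0.16 (quasi-likelihood, earlier-version form, R 4.3.3) in the model given in the study's methods, 6 groups of genotype and day plus clone (16723 genes), or with 12 groups of clone, genotype and day for comparisons of the clones (17589 genes). Adjusted p-values are Benjamini-Hochberg values over all genes tested, with a threshold of 0.05. Figures and levels were made with Python 3.11.15, pandas 2.3.3 and matplotlib 3.10.9. Levels per kilobase used the exon length in the count tables. Gene symbols came from GENCODE M21, in which all 55536 identifiers were found, and promoter windows from RefSeq, where 4 of the 5 genes had an entry.

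Genes were named by rule: the 5 genes, any gene of a list of at most 8, and from longer lists the 4 largest increases and 4 largest decreases between days 0 and 6 among called genes, with Rxra, and the 3 genes most correlated with each of the 5. Same-numbered WT and SA libraries of a clone and day deviated together (18 pairs, correlations from 0.178 to 0.922 over 9726 genes), so the numbers pair these libraries. Counts of replicates differed by far more than sampling noise (chi-square per degree of freedom from 12.02 to 188.1 in 36 pairs), so none was the copy of another. The test was checked on simulated data. Alternatives were other scalings, filters and tests (DESeq2 1.42.0, edgeR version 4), replicates left out, each clone alone, blocks of replicate number, only the days compared, and no mitochondrial genes. Count totals set the precision, and SDs and SEs cover the spread between libraries.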

Additional observations from a re-analysis of the deposited data

Results flagged for a closer look

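The results below were picked out because the same change over time differed between the 2 clones by the test of the difference itself (edgeR quasi-likelihood, adjusted over 17589 genes). Cebpa rose more in clone 66 than in clone 48 between days 0 and 2, by 1.19 on the log2 scale (adjusted p = 2.159e-04), and between days 0 and 6, by 1.08 (adjusted p = 1.099e-03). Clone 66 was lower on day 0 in 6 of 6 libraries, and on day 2 the clones overlapped. Cebpd rose more in clone 66 between days 0 and 2, by 1.03 (adjusted p = 2.469e-04), and fell more between days 2 and 6, with a difference of -0.63 (adjusted p = 0.0281). All 6 clone 66 libraries were above all 6 clone 48 libraries on day 2. Clone and library pool cannot be told apart in these results. None of the 30 groups of 6 libraries that were examined, for 5 genes on 3 days by genotype, held a library set apart from the others by Dixon's criterion. Groups by clone are not covered by this statement. In clone 48 on day 0, Cebpb was 6.67 CPM in WT replicate 1 and 9.77 to 11.3 CPM in the other libraries.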

How the results depend on the processing

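The 5 genes kept direction and call between days 0 and 2 in all 18 alternatives, and between days 2 and 6 with the exception of Cebpg, whose uncalled difference was 0.031 in clone 66 alone. Between days 0 and 6 the Cebpd difference alone changed its call, as given with that gene. The number of members called between SA and WT was 0 in every alternative. Over all alternatives, 938 values of single members kept direction and call, 41 changed sign, 11 passed the test anew and 15 no longer did. For clones on day 0, 3 members were called with a filter of 1 CPM in 6 libraries, 3 without mitochondrial genes and 2 with the replicate block, and 1 to 2 with replicates left out. On day 2 the count was 1 to 2 with replicates left out. On day 6 it was 0 by library size alone, 0 with no filter and 0 to 1 with replicates left out. For clone by time between days 2 and 6 it was 0 with no filter, 2 with the replicate block and 0 to 1 with replicates left out. The cause of these changes was not tested.

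Between clones, same-numbered libraries correlated over 0.1 in all 6 pairs on day 2 (0.328 to 0.882) and in 5 of 6 pairs on day 0 (-0.33 to 0.656) and on day 6 (0.0232 to 0.891). With the replicate block the Pparg difference on day 0 (-0.31, adjusted p = 0.0144) and clone by time for Cebpb (0.65, adjusted p = 0.0167 for days 0 to 2, and -0.54, adjusted p = 0.0376 for days 2 to 6) passed the test, and the block changed no other call of a member. Over all genes it gave 2166, 2082 and 1363 calls for clone by time in place of 1094, 1022 and 637, which with replicates left out went as low as 541, 522 and 317. Within each day it gave 1 call for SA against WT on day 2, and for clone by genotype 4, 1 and 3, beside 2 with the block across days and 5 with no filter on day 0.

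Differences near 0 changed sign without passing the test. For SA minus WT on day 0 these were Cebpb (-1.6e-05 in clone 66 alone, -0.0026 to 0.16 with replicates left out), Cebpg (-0.0062 by library size alone, -0.025 in clone 48 alone, -0.0028 to 0.035 with replicates left out), Cebpa (0.067 in clone 48 alone, -0.15 to 0.027 with replicates left out) and Cebpd (-0.094 in clone 66 alone). On day 2 they were Cebpa (0.00041 by library size alone) and Cebpd (-0.12 to 0.013 with replicates left out). On day 6 they were Cebpb (0.0038 by library size alone, 0.0032 with no filter, 0.041 in clone 48 alone, -0.078 to 0.060 with replicates left out), Cebpg (0.086 in clone 48 alone, -0.053 to 0.024 with replicates left out), Cebpa (-0.0037 in clone 48 alone) and Cebpd (0.062 in clone 48 alone, -0.073 to 0.043 with replicates left out). Between clones they were Cebpb (-0.25 to 0.033) and Cebpg (-0.16 to 0.033) on day 0 and Cebpg on day 2 (-0.093 to 0.17) with replicates left out, Cebpg on day 2 (-0.0047), Cebpb on day 6 (-0.042) and Cebpd on day 6 (-0.0016) by library size alone, and Cebpb on day 6 with replicates left out (-0.19 to 0.12). For clone by time with replicates left out they were Cebpg over days 0 to 2 (-0.12 to 0.33), Cebpa over days 2 to 6 (-0.24 to 0.023), and Cebpb (-0.15 to 0.38) and Pparg (-0.10 to 0.22) over days 0 to 6.

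Shares of the C/EBP sum moved by more than their SD in 10 of 12 cases when counts were not divided by length, and the most similar genes changed in 9 of 10 cases with another measure. Cebpb and Cebpd on day 0 and Cebpd on day 6 rest on 116 to 290 read pairs a library, the lowest counts of the 5 genes.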
